A study of Homo sapiens with 4 samples.

Results

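The heat shock chaperones of the cytosol, nucleus and mitochondria were examined in PANC-1, a long-established cell line from a human pancreatic carcinoma. The genes were chosen by symbol and not by any measured value, and all 47 were found among the 16878 genes of the expression tables. They fall into 8 families, namely 2 heat shock factors, 8 genes of the HSP70 family, 8 genes of HSP90 and its co-chaperones, 3 small heat shock proteins, 9 J-domain proteins, 5 BAG co-chaperones, 8 subunits of the cytosolic chaperonin and 4 mitochondrial chaperones. RNA-seq was performed on 2 libraries of cells given a control transfection (Control) and 2 libraries of cells given a small interfering RNA that targets SIRT1 (siSIRT1), an NAD-dependent protein deacetylase, with RNA taken 48 h after transfection in both groups. The question is how chaperone transcripts differ once SIRT1 is lost. The sources used here do not give the sequence of the control, and the knockdown rests on a single small interfering RNA in a single cell line. Nothing in the labels says that libraries of a group came from separate cultures, so the p-values measure the spread between these libraries, which may be technical.

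Heat shock proteins bind unfolded or partly folded proteins and help them to fold, to be moved or to be degraded. Most of the inducible members are switched on by heat shock factor 1, encoded by HSF1, which binds inverted repeats of the letters GAA, called heat shock elements, in their promoters. HSP70 works in a cycle of ATP hydrolysis that J-domain proteins start and that nucleotide exchange factors, among them BAG proteins and the HSP110 proteins, complete. HSP90 acts later, on clients such as kinases and steroid receptors, with a set of co-chaperones. SIRT1 itself is known for removing acetyl groups from HSF1, which prolongs its binding to DNA.

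Expression is given as FPKM, that is, sequenced fragments scaled to transcript length and to the depth of the library, which allows levels to be compared between genes. Estimated depths ran from 8810000 to 9150000 reads per library. Of the ductal epithelial markers, the keratins KRT8, KRT18 and KRT19 were at 313 to 2745 FPKM in all 4 libraries and KRT7 at 2.89 to 4.04. KRT18 and KRT19 rose by 0.26 and 0.25 on the log2 scale (adjusted p = 0.035 and 0.0178, limma), KRT8 did not pass at 0.25 (0.0513), and the transcription factor SOX9 fell, from 63.7 and 61.0 FPKM in Control to 40.2 and 41.6 FPKM in siSIRT1 (adjusted p = 0.00021). The acinar, endothelial and fibroblast markers in the tables were at 0.75 FPKM or less, with CELA3A listed at 0 throughout. Of the leukocyte markers, PTPRC was at 0.97 to 1.29 FPKM, and CD68, a lysosomal protein, was at 63.0 and 60.8 FPKM in Control against 42.3 and 39.1 in siSIRT1. The part of these markers in the results was not tested. In bulk RNA, fewer cells of a type and less RNA per cell cannot be told apart.

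The small interfering RNA is shown because it defines the treated group. Its sequence, taken from the study's supplement, is printed 5′ to 3′ in lower case.
siSIRT1: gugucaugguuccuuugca
SIRT1 (GRCh37, chr10:69644414-69678147, plus strand) had 10.5 and 10.3 FPKM in Control against 1.80 and 2.05 FPKM in siSIRT1, so that 18.6% of the Control level remained. The log2 fold change, siSIRT1 minus Control on the scale of log2(FPKM + 1), was -1.96 (standard error 0.11, adjusted p = 1.33e-05, limma, Benjamini-Hochberg adjustment over all genes tested).

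**Figure D1:**
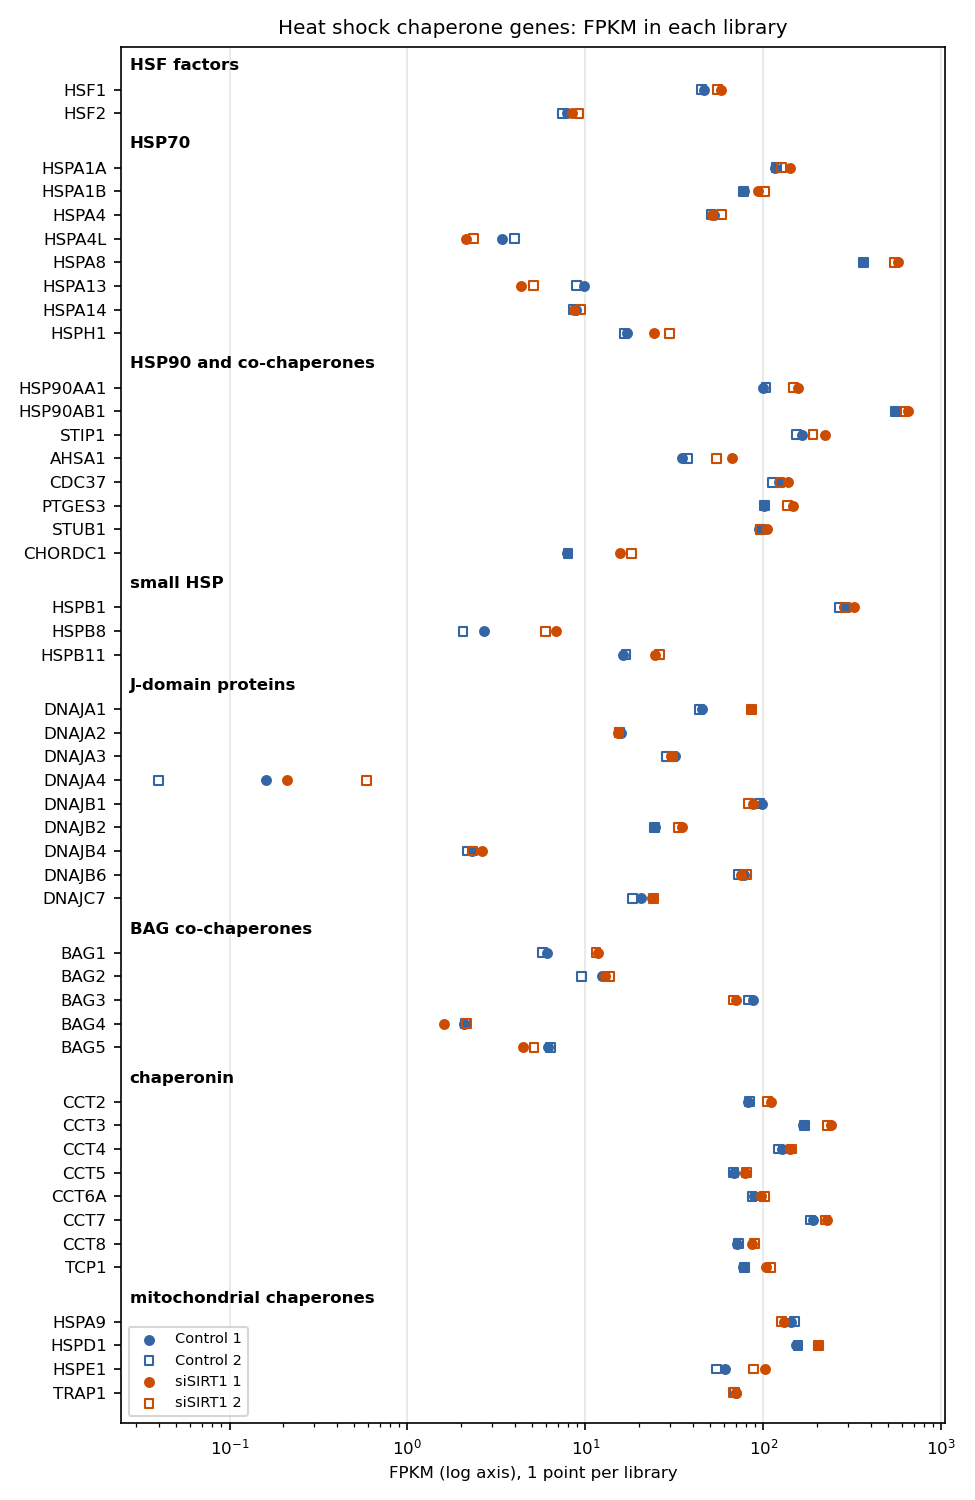
FPKM of the 47 chaperone genes on a log axis, with 1 point per library, circles for replicate 1 and squares for replicate 2, blue for Control and orange for siSIRT1. HSP90AB1, HSPA8 and HSPB1 lie at the right and DNAJA4 stands alone at the left.

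The chaperones span a wide range of levels. HSP90AB1, the constitutive cytosolic HSP90, had the highest mean of the 47 in both groups, followed by HSPA8, the constitutive HSP70, and by HSPB1, the small heat shock protein HSP27. At the other end were BAG4 at 1.61 to 2.14 FPKM and DNAJA4 at 0.04 to 0.59 FPKM. Together the 47 genes summed to 3921 and 3851 FPKM in Control against 4863 and 4682 FPKM in siSIRT1, a 1.23-fold difference in the means. As a share of all FPKM this was 0.975% and 0.970% in Control against 1.14% and 1.15% in siSIRT1. The summed level was thus higher in both siSIRT1 libraries by either measure.

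More chaperone genes rose than fell after SIRT1 knockdown. Of the 47, 46 averaged 1 FPKM or more and were tested. An adjusted p under 0.05 by limma was reached by 26 that rose and 6 that fell, and 14 did not pass. The 32 genes make up 69.6% of the chaperones tested, where 37.1% of all 12191 genes tested passed, 24.0% of them higher and 13.1% lower in siSIRT1. The median log2 fold change was 0.24 over the chaperones and 0.07 over all genes tested. Values of the groups did not overlap in 39 of the 46 chaperones (84.8%), where 69.0% of all genes were apart. With median-of-ratios scaling between libraries, which lowers log2 fold changes by about 0.08, 20 chaperones rose and 6 fell, where 33.4% of all genes passed, 16.6% higher and 16.8% lower, and the medians were 0.15 and -0.002. The 6 calls lost under that scaling were the rises of HSP90AB1, DNAJC7, CCT4, CCT5, CCT6A and CCT7. At a fold change above 1.2 with an unadjusted p under 0.001, 18 chaperones were higher and 1 was lower, where 18.1% of all genes passed in either direction. Without the library Control 2, the number that passed was 19 of the 46, 17 higher and 2 lower, where 22.1% of all genes passed. Without Control 1 it was 23, 21 higher and 2 lower, where 22.5% did.

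**Figure D2:**
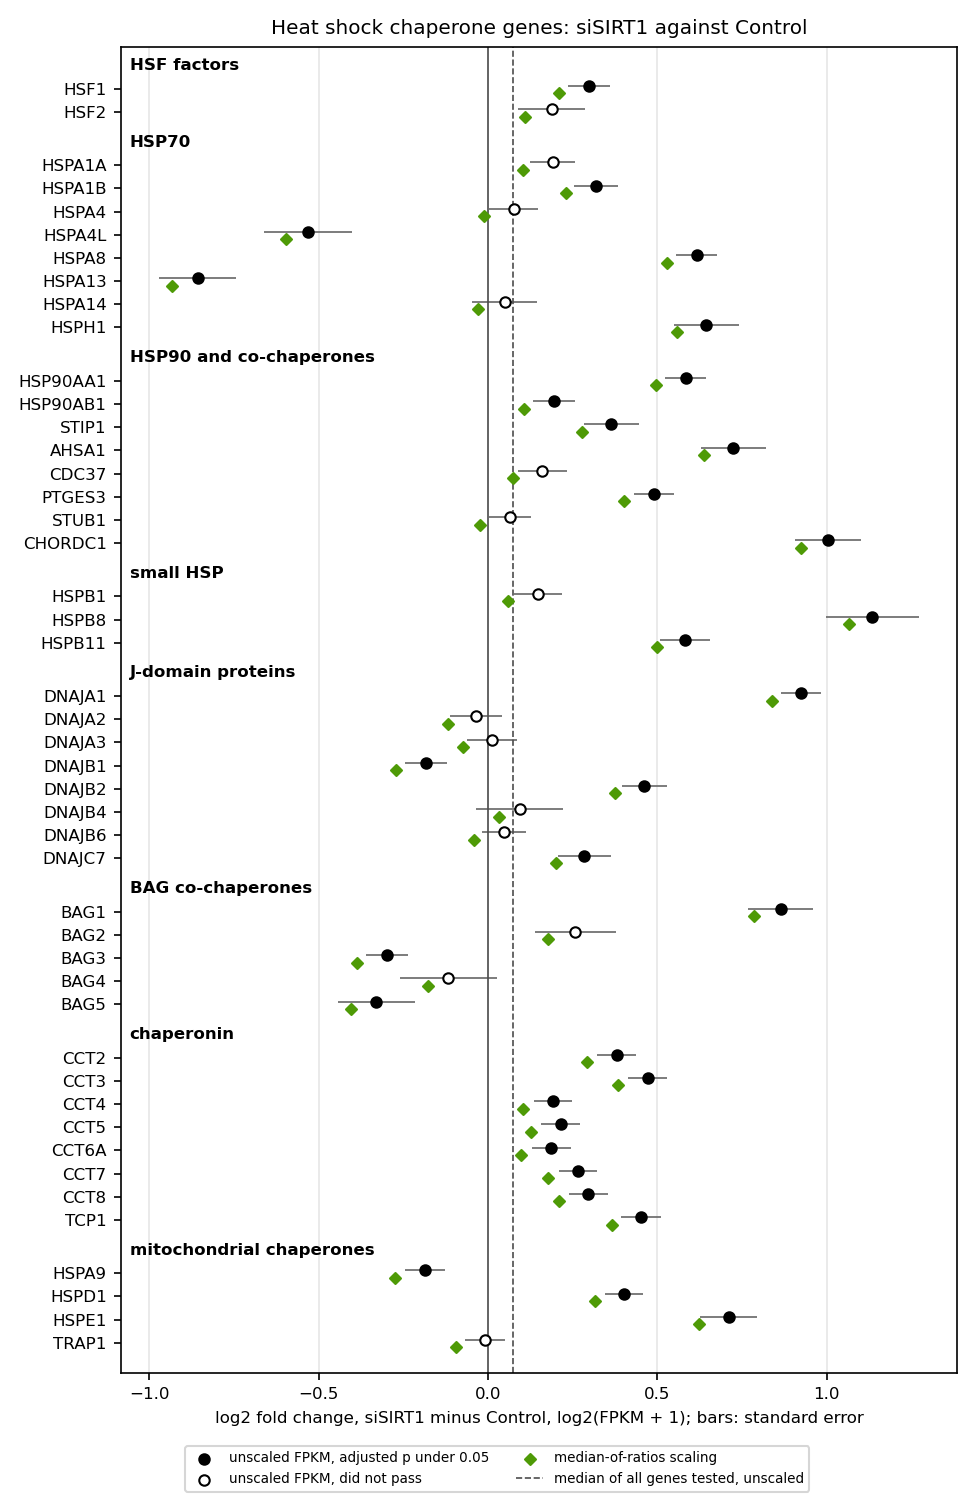
Log2 fold change of the 46 chaperone genes tested, siSIRT1 minus Control, with circles for unscaled FPKM, filled where the adjusted p was under 0.05, bars for the standard error, diamonds for median-of-ratios scaling and a dashed line at the median of all genes tested. The chaperonin subunits all lie to the right of 0 under both scalings, while the HSP70, J-domain, BAG and mitochondrial families lie on both sides of it.

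Heat shock elements were looked for in the RefSeq promoter windows of the members (250 bases before to 50 after an annotated start). The motif was GAA, 2 bases of any kind, TTC, 2 bases of any kind and GAA, or the same with TTC and GAA exchanged, on both strands, so that neighbouring matches can overlap. Of the 47 chaperone genes, 42 had a window, and 7 of these (16.7%) held such a run of 3 units. Across all of RefSeq, 166 of 27305 genes (0.608%) did, or 0.49% of all windows. A pair of units, GAA and TTC or TTC and GAA with 2 bases between, was in 21 of the 42 (50%) and in 16.2% of all genes. HSF1, HSPA14, STUB1, BAG4 and CCT6A had no window. The stretches that hold the runs of 3 units are shown because they join members of different families, read 5′ to 3′ on the strand of the gene, with the motif in capitals and GRCh37 coordinates found by exact match.
HSPA8, upstream, chr11:122933047-122933089, minus strand: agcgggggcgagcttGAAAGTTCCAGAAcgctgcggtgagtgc
HSPA8, near the start, chr11:122932872-122932914, minus strand: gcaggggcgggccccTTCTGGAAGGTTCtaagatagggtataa
HSP90AA1, chr14:102553442-102553484, minus strand: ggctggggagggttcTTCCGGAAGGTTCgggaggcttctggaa
HSP90AB1, chr6:44215500-44215595, plus strand: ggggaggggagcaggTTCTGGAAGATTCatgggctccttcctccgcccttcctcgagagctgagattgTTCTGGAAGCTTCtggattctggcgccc
CHORDC1, chr11:89956240-89956292, minus strand: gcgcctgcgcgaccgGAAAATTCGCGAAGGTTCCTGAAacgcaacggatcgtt
DNAJA1, chr9:33025259-33025301, plus strand: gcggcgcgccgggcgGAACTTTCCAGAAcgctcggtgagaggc
DNAJB6, chr7:157129552-157129594, plus strand: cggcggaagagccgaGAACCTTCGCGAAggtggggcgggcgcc
HSPD1, chr2:198364777-198364814, minus strand: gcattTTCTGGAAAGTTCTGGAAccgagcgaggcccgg
The longest unbroken run was that of CHORDC1, where 3 overlapping matches covered bases -60 to -38 from the start. HSPA8 held a match at -55 to -43 and another at -230 to -218. In DNAJA1 the match lay just inside the transcript, at bases 4 to 16. The runs of HSPA8, HSP90AA1, HSP90AB1, DNAJB6 and HSPD1 lie inside the outer bounds of their genes, which span all annotated transcripts. These runs are thus upstream of some annotated starts and downstream of others. In HSP90AB1 the runs were found only in window 3 of the gene, downstream of its first annotated base at 44213903. HSPD1 and HSPE1 run in opposite directions, and their RefSeq starts lie head to head, 539 bases apart. The outer bounds of HSPD1 take in HSPE1, so this layout holds for those starts only. The HSPD1 run lies at -311 to -294 from the RefSeq start of HSPE1, base 198365103, and so outside the window of HSPE1. An earlier annotated start of HSPE1, base 198364864, lies nearer to the run. A window around that base was not searched.

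**Figure D3:**
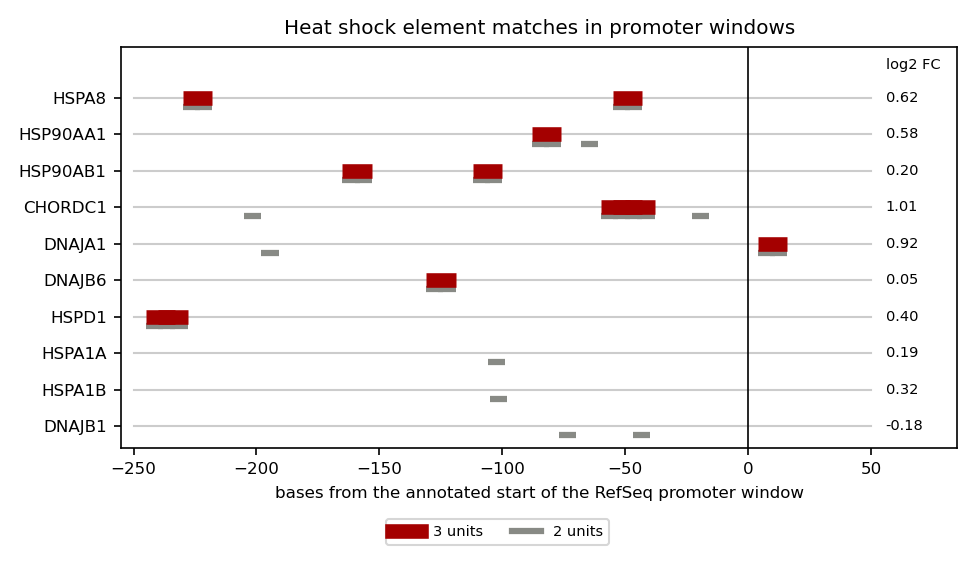
Positions of heat shock element matches in a single promoter window of each of 10 chaperone genes, in bases from the annotated start. Thick bars are for 3 units and thin bars for 2 units, and the log2 fold change is at the right. The 7 upper genes hold a run of 3 units and the 3 lower ones only pairs.

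Among the 7 genes with a run of 3 units, 6 rose, HSP90AB1 among them only without median-of-ratios scaling, and DNAJB6 did not pass. Over the whole transcriptome 46 genes tested held such a run, and of the 39 that are not among the 47 chaperones 12 rose (30.8%) and 5 fell (12.8%), with a median log2 fold change of 0.10. Shares of 24.0% and 13.1% stand for all genes tested. Of all 46 chaperones tested, with or without such a run, 56.5% rose and 13% fell. The part of the run in these rises was not tested. HSPA1A, HSPA1B and DNAJB1, textbook heat-inducible genes, matched only pairs of units. Stretches of their windows are given because the stress-inducible pair HSPA1A and HSPA1B differs at few bases and because DNAJB1 fell. A further pair of units in DNAJB1, at bases 2 to 9 from another annotated start, is not shown.
HSPA1A, chr6:31783199-31783236, plus strand: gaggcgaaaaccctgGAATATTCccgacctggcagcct
HSPA1B, chr6:31795395-31795432, plus strand: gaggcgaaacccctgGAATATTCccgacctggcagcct
DNAJB1, chr19:14629234-14629301, minus strand: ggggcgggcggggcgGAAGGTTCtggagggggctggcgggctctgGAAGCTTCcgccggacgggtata
The HSPA1A and HSPA1B windows were identical at 277 of 299 bases (92.6%). A match is a description of the letters and not of binding.

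HSF1 rose modestly and its paralog HSF2 did not pass. HSF1, the master regulator of the heat shock response, was at 46.6 and 44.9 FPKM in Control against 57.9 and 55.0 FPKM in siSIRT1, with no overlap between the groups. Its log2 fold change was 0.30 (standard error 0.06, adjusted p = 0.00644, limma), and the 9 alternative settings gave adjusted p from 0.00066 to 0.047. Without Control 2 the adjusted p was 0.0868, and the log2 fold change was 0.18 with the trend on transcript length removed. HSF2, which can join HSF1 on DNA, was at 7.83 and 7.41 FPKM in Control against 8.44 and 9.20 FPKM in siSIRT1, a log2 fold change of 0.19 (standard error 0.10, adjusted p = 0.174, limma). The exons of HSF1 share 137 bases with DGAT1 on the opposite strand, and whether the counting used strand is not stated.

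The HSP70 family was split, with 3 genes that rose, 2 that fell and 3 that did not pass. That is 37.5% higher and 25% lower, where 24.0% and 13.1% of all genes tested were. The counts were the same with median-of-ratios scaling, where 16.6% and 16.8% of all genes were higher and lower. With 8 genes, these shares do not set the family apart from other genes. HSPA8 (GRCh37, chr11:122928197-122933938, minus strand), the constitutive HSP70 that does most of the folding work in unstressed cells, was at 365 and 363 FPKM in Control against 570.05 and 548 FPKM in siSIRT1. That is 1.54-fold, with a log2 fold change of 0.62 (standard error 0.06, adjusted p = 0.00016, limma), so that the most abundant HSP70 was among the clearest rises. HSPH1 (chr13:31709110-31736525, minus strand), an HSP110 protein that exchanges the nucleotide of HSP70, was at 17.1 and 16.6 FPKM in Control against 24.4 and 29.5 FPKM in siSIRT1, a log2 fold change of 0.64 (standard error 0.10, adjusted p = 0.00119, limma). The other HSP110 genes did not move with it. HSPA4L, a paralog of HSPH1, was at 3.40 and 4.0 FPKM in Control against 2.13 and 2.36 FPKM in siSIRT1, and fell by 0.53 on the log2 scale (standard error 0.13, adjusted p = 0.0128, limma, and 0.116 without Control 2). HSPA4, the third HSP110 gene, was at 50.8 to 52.7 FPKM in Control and 51.4 to 57.9 FPKM in siSIRT1 and did not pass (adjusted p = 0.451, limma).

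HSPA13 (GRCh37, chr21:15743436-15755805, minus strand) showed the largest fall of the 46 chaperones tested. This small HSP70 relative, also called STCH, lacks the peptide-binding domain and is associated with microsomes. It was at 9.77 and 8.91 FPKM in Control against 4.34 and 5.09 FPKM in siSIRT1, with about 339 and 315 against 148 and 178 reads behind the values. The log2 fold change was -0.86 (standard error 0.11, adjusted p = 0.000691, limma), and 50.5% of the Control level remained. It was the only fall that passed in each of the 9 alternative settings and in all 4 fits without 1 library. HSPA14, a ribosome-associated HSP70, was at 8.55 to 8.88 FPKM in Control and 8.67 to 9.45 FPKM in siSIRT1 and did not pass (adjusted p = 0.722, limma).

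The stress-inducible pair HSPA1A and HSPA1B encodes nearly the same HSP70 protein from neighbouring genes without introns (GRCh37, chr6:31783320-31785723 and chr6:31795515-31798031, plus strand), so reads may be divided between them in ways that the tables do not show. HSPA1A was at 116 and 119 FPKM in Control against 142 and 127 FPKM in siSIRT1, a log2 fold change of 0.19 (adjusted p = 0.0562, limma, and 0.0088 without siSIRT1 2). HSPA1B was at 78.3 and 77.4 FPKM in Control against 92.8 and 102 FPKM in siSIRT1, a log2 fold change of 0.32 (adjusted p = 0.00541, limma, and 0.0583 without Control 2). Neither overlapped between groups, but their siSIRT1 libraries ranked in opposite order. Summed as a single gene, which takes away the division, they were at 194 and 196 FPKM in Control against 235 and 229 FPKM in siSIRT1, a log2 fold change of 0.25 (standard error 0.06, adjusted p = 0.00919, limma). This sum was chosen after the values were seen. A further heat-inducible gene of the family, HSPA6, was at 0.25 FPKM in both Control libraries and at 0.51 and 0.80 FPKM in siSIRT1, too low to be tested.

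HSP90 and its co-chaperones rose in 6 of 8 genes, or in 5 with median-of-ratios scaling, and none fell. Of all genes tested 24.0% were higher, or 16.6% with that scaling. HSP90AA1 (GRCh37, chr14:102547079-102606036, minus strand), the inducible cytosolic HSP90, was at 99.2 and 104 FPKM in Control against 157 and 148 FPKM in siSIRT1. The log2 fold change was 0.58 (standard error 0.06, adjusted p = 0.000221, limma). HSP90AB1 (chr6:44213903-44221625, plus strand), its constitutive counterpart, was at 557 and 552 FPKM in Control against 646 and 624 FPKM in siSIRT1, a log2 fold change of 0.20 (standard error 0.06, adjusted p = 0.0377, limma). The HSP90AB1 call was lost in 5 of the 9 alternative settings, over which its adjusted p ran from 0.00156 to 0.33 and its log2 fold change from 0.09 to 0.20, and it was 0.351 without Control 1 and 0.385 without Control 2.

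CHORDC1 (GRCh37, chr11:89933597-89956245, minus strand), a zinc-binding HSP90 co-chaperone, showed the second-largest rise of the 46 genes. It was at 7.86 and 7.98 FPKM in Control against 15.7 and 18.2 FPKM in siSIRT1, or 2.14-fold, with a log2 fold change of 1.01 and a standard error of 0.10 (adjusted p = 0.000153, limma). AHSA1 (chr14:77924213-77935815, plus strand), which stimulates the HSP90 ATPase, was at 34.9 and 37.3 FPKM in Control against 66.9 and 54.3 FPKM in siSIRT1, a log2 fold change of 0.72 (standard error 0.10, adjusted p = 0.000696, limma). Both siSIRT1 libraries lay above both Control libraries for these co-chaperones. PTGES3, the co-chaperone p23 that holds HSP90 in its closed state, rose by 0.49 on the log2 scale (adjusted p = 0.000455, limma). STIP1, the adaptor HOP between HSP70 and HSP90, rose by 0.36 (adjusted p = 0.00825, limma), a call lost without Control 2 (0.0928) and without the filter on low values (0.0615, the highest of the 9 alternatives, over which the adjusted p started at 3.33e-05). CDC37, the kinase adaptor of HSP90, was at 112 to 122 FPKM in Control and 124 to 138 FPKM in siSIRT1 and did not pass (adjusted p = 0.121, limma, and 0.0338 without siSIRT1 2). STUB1, the ubiquitin ligase CHIP, was at 94.8 and 96.0 FPKM in Control against 104 and 95.7 FPKM in siSIRT1 (adjusted p = 0.454, limma), and 700 bases of its exons lie opposite JMJD8.

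Of the small heat shock proteins, HSPB8 and HSPB11 rose and the abundant HSPB1 did not pass. HSPB8 (GRCh37, chr12:119609360-119662660, plus strand), the partner of BAG3 in the autophagy of misfolded proteins, was at 2.70 and 2.05 FPKM in Control against 6.80 and 5.98 FPKM in siSIRT1. This was the largest rise of the 46 genes, 2.69-fold, with a log2 fold change of 1.14 and a standard error of 0.14 (adjusted p = 0.000447, limma), at a depth of about 43 and 33 reads against 107 and 96. HSPB11 (chr1:54382247-54411372, minus strand), now named IFT25 and known as a subunit of intraflagellar transport more than as a chaperone, was at 16.4 and 16.9 FPKM in Control against 24.8 and 26.1 FPKM in siSIRT1, a log2 fold change of 0.58 (adjusted p = 0.000539, limma), or 0.34 with the trend on transcript length removed. HSPB1, or HSP27, was at 286 and 269 FPKM in Control against 324 and 291 FPKM in siSIRT1. Its groups did not overlap, yet the log2 fold change of 0.15 did not pass (standard error 0.07, adjusted p = 0.139, limma, and 0.0221 without siSIRT1 2), and it was -0.08 once each library's trend with transcript length was removed.

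The J-domain proteins changed in both directions, with 3 that rose, 1 that fell, 4 that did not pass and 1 that was too low to test. Of the 8 tested, 37.5% rose and 12.5% fell, where 24.0% and 13.1% of all genes tested did. With median-of-ratios scaling 37.5% passed, where 33.4% of all genes did. The median log2 fold change of the family was 0.07, and -0.004 with that scaling, where all genes had 0.07 and -0.002. With so few genes, these values do not set the family apart from other genes. DNAJA1 (GRCh37, chr9:33025271-33039905, plus strand), a farnesylated partner of HSPA8 in protein import and folding, was at 45.4 and 43.6 FPKM in Control against 85.2 and 85.4 FPKM in siSIRT1. The log2 fold change was 0.92 (standard error 0.06), and the adjusted p of 1.95e-05 (limma) was the lowest of the 46 genes. DNAJB1 (chr19:14625581-14671203, minus strand), the HSP40 that is induced with HSP70 in heat shock, went the other way. It was at 98.7 and 94.7 FPKM in Control against 87.9 and 82.2 FPKM in siSIRT1, and fell by 0.18 on the log2 scale (standard error 0.06, adjusted p = 0.0465, limma). The fall passed in 7 of the 9 alternative settings, with adjusted p from 0.000669 to 0.142, but only in 1 of the 4 fits without 1 library (0.339 without Control 1, 0.179 without Control 2 and 0.0976 without siSIRT1 2). With the trend on transcript length removed, the log2 fold change was -0.30.

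DNAJB2, best known from neurons, rose by 0.46 on the log2 scale (adjusted p = 0.00104, limma). DNAJC7, which hands clients between HSP70 and HSP90, rose by 0.28 (adjusted p = 0.0207, limma), a call kept in only 3 of the 9 alternative settings (adjusted p from 0.00643 to 0.126, log2 fold change down to 0.16) and lost without Control 2 (0.220) and without siSIRT1 2 (0.0514). Its exons overlap those of NKIRAS2 and CNP on the opposite strand by 100 and 399 bases. DNAJA2 at 15.2 to 15.9 FPKM, DNAJA3, the mitochondrial Tid1, at 28.6 to 31.9 FPKM, DNAJB4 at 2.18 to 2.61 FPKM and DNAJB6, a suppressor of polyglutamine aggregation, at 72.8 to 80.2 FPKM had overlapping or nearly touching groups and did not pass (adjusted p from 0.606 to 0.922, limma). DNAJA4 was at 0.16 and 0.04 FPKM in Control against 0.21 and 0.59 FPKM in siSIRT1, with about 4, 1, 6 and 16 reads. With no filter on low values its adjusted p was 0.199 (limma).

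The BAG co-chaperones diverged. BAG1 (GRCh37, chr9:33247818-33264718, minus strand), which couples HSP70 to the proteasome, was at 6.09 and 5.76 FPKM in Control against 11.7 and 11.5 FPKM in siSIRT1, a log2 fold change of 0.86 (standard error 0.10, adjusted p = 0.000287, limma). BAG3 (chr10:121410892-121437331, plus strand), which couples HSP70 and HSPB8 to autophagy, was at 87.9 and 82.6 FPKM in Control against 70.2 and 68.0 FPKM in siSIRT1. It fell by 0.30 on the log2 scale with a standard error of 0.06 (adjusted p = 0.00561, limma), and the adjusted p was 0.0994 without Control 1. BAG3 and HSPB8, which act in the same complex, thus changed in opposite directions. BAG5 was at 6.18 and 6.38 FPKM in Control against 4.46 and 5.14 FPKM in siSIRT1, and fell by 0.33 (standard error 0.11, adjusted p = 0.0497, limma), a fall that was lost with no filter on low values (0.0977) and that passed only in 1 of the 4 fits without 1 library, where the adjusted p was 0.173 without Control 1, 0.228 without Control 2 and 0.137 without siSIRT1 1. Over the 9 alternatives its adjusted p ran from 0.0101 to 0.0977. BAG2, whose exons lie opposite RAB23 over 2842 bases, was at 12.5 and 9.54 FPKM in Control against 12.9 and 13.6 FPKM in siSIRT1 (adjusted p = 0.128, limma, and 0.0381 without Control 1). BAG4 was at 2.09 and 2.12 FPKM in Control against 1.61 and 2.14 FPKM in siSIRT1 (adjusted p = 0.56, limma). BAG3 was the most abundant of these 5 genes, and their summed level was 115 and 106 FPKM in Control against 101 and 100.4 FPKM in siSIRT1.

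**Figure D4:**
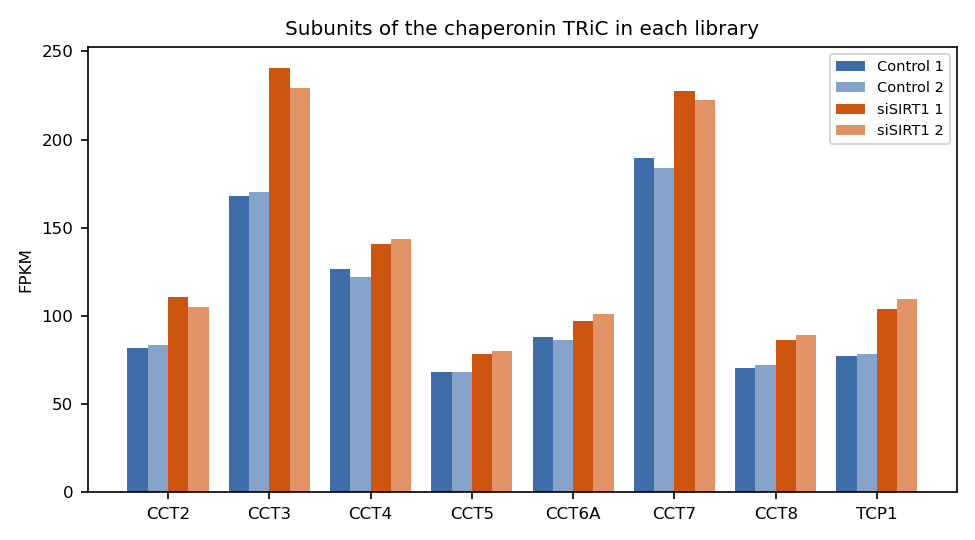
FPKM of the 8 chaperonin subunits, with 1 bar per library from 0, blue for Control and orange for siSIRT1. For each subunit both orange bars stand above both blue bars, and CCT3 and CCT7 are the highest in all 4 libraries.

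The cytosolic chaperonin TRiC, a ring-shaped complex of 8 different subunits that folds actin and tubulin, rose throughout. All 8 subunits passed, with log2 fold changes from 0.19 in CCT6A and CCT4 to 0.47 in CCT3, and none overlapped between groups. Of all genes tested, 24.0% passed as higher and 69.0% did not overlap, so lack of overlap was common. With median-of-ratios scaling all 8 log2 fold changes stayed above 0 and 4 passed, namely CCT2, CCT3, CCT8 and TCP1, where 16.6% of all genes were higher. CCT3 (GRCh37, chr1:156278759-156337664, minus strand) was at 168 and 170.1 FPKM in Control against 240.5 and 229 FPKM in siSIRT1 (standard error 0.06, adjusted p = 0.00047, limma). TCP1 (chr6:160199530-160210735, minus strand) was at 77.2 and 78.4 FPKM in Control against 104 and 109.8 FPKM in siSIRT1, a log2 fold change of 0.45 (adjusted p = 0.000624, limma), and 454 bases of its exons lie opposite ACAT2. CCT2 rose by 0.38 (adjusted p = 0.00137, limma).

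The changes of the remaining subunits were smaller. CCT8 rose by 0.30 on the log2 scale (adjusted p = 0.00443, limma, and 0.0715 without Control 1) and CCT7 by 0.27 (adjusted p = 0.00672, limma, and 0.0868 without Control 1 and 0.147 without Control 2). With the trend on transcript length removed, the log2 fold changes of CCT8 and CCT7 were 0.17 and 0.14. CCT4, CCT5 and CCT6A rose by 0.19 to 0.21 and passed in only 3 of the 9 alternative settings each, over which their log2 fold changes went down to between 0.08 and 0.13. Without Control 1 their adjusted p ran from 0.157 to 0.200 and without Control 2 from 0.174 to 0.312, and that of CCT6A was 0.0540 without siSIRT1 2. The subunits enter the ring in equal numbers, while their messages differed by 2.70 to 3.06 times between the highest and the lowest in a library. CCT5 was the lowest in all 4 libraries, CCT7 the highest in Control and CCT3 the highest in siSIRT1. The ring as a whole summed to 871 and 865 FPKM in Control against 1086 and 1081 FPKM in siSIRT1, or 1.25-fold.

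In the mitochondria the chaperonin rose and the HSP70 fell. HSPD1 (GRCh37, chr2:198351308-198381461, minus strand), which encodes the HSP60 ring, was at 152 and 157 FPKM in Control against 203 and 205 FPKM in siSIRT1, a log2 fold change of 0.40 (standard error 0.06, adjusted p = 0.000876, limma). HSPE1 (chr2:198364864-198368173, plus strand), its lid HSP10, was at 60.7 and 54.3 FPKM in Control against 102 and 88.1 FPKM in siSIRT1, a log2 fold change of 0.71 (standard error 0.08, adjusted p = 0.000394, limma), or 0.45 with the trend on transcript length removed. These neighbours, which share a promoter region, both rose, and 192 exon bases of HSPE1 also belong to the readthrough gene HSPE1-MOB4. HSPA9 (chr5:137889445-137911364, minus strand), the matrix HSP70 mortalin that pulls in imported proteins, was at 143 and 149 FPKM in Control against 131 and 126 FPKM in siSIRT1. It fell by 0.19 on the log2 scale (standard error 0.06, adjusted p = 0.0343, limma), with adjusted p from 0.00058 to 0.124 over the 9 alternatives. The fall of HSPA9 passed only in 1 of the 4 fits without 1 library (0.182 without Control 1, 0.330 without Control 2 and 0.0531 without siSIRT1 2). TRAP1, the mitochondrial HSP90, was at 70.5 and 68.6 FPKM in Control against 70.5 and 67.8 FPKM in siSIRT1, a log2 fold change of -0.01 (standard error 0.06, adjusted p = 0.932, limma), and 824 bases of its exons lie opposite DNASE1.

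Ratios of partner genes within a library do not depend on the scaling between libraries. For DNAJA1 over DNAJB1, J-domain partners of the same HSP70, the ratio was 0.460 in both Control libraries and 0.970 and 1.04 in siSIRT1, so that the messages came to nearly equal levels. The ratio of BAG3 to BAG1 was 14.4 and 14.3 in Control against 5.98 and 5.94 in siSIRT1. HSPD1 over HSPA9 was 1.06 and 1.05 in Control against 1.55 and 1.63 in siSIRT1. Each of these ratios moved by more than the difference between libraries of a group. Each also joins a gene called higher with a gene called lower in these same libraries. A shift of the ratio follows from those calls and is no further support for them. HSP90AA1 over HSP90AB1 was 0.178 and 0.187 in Control against 0.243 and 0.236 in siSIRT1. HSPA8 over HSPA1A was 3.14 and 3.06 in Control against 4.02 and 4.32 in siSIRT1. For HSPD1 over HSPE1 the ratio was 2.50 and 2.88 in Control against 2.00 and 2.33 in siSIRT1, where the gap between groups is smaller than the spread within either. The ratio of the chaperonin subunits CCT7 and CCT5 was 2.77 and 2.70 in Control against 2.90 and 2.77 in siSIRT1, with overlapping groups (exact permutation p = 0.667). The groups did not overlap in the other 6 ratios, and the exact permutation test (two-sided) gave p = 0.333 for each, which is the smallest p that 2 against 2 libraries allow.

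**Figure D5:**
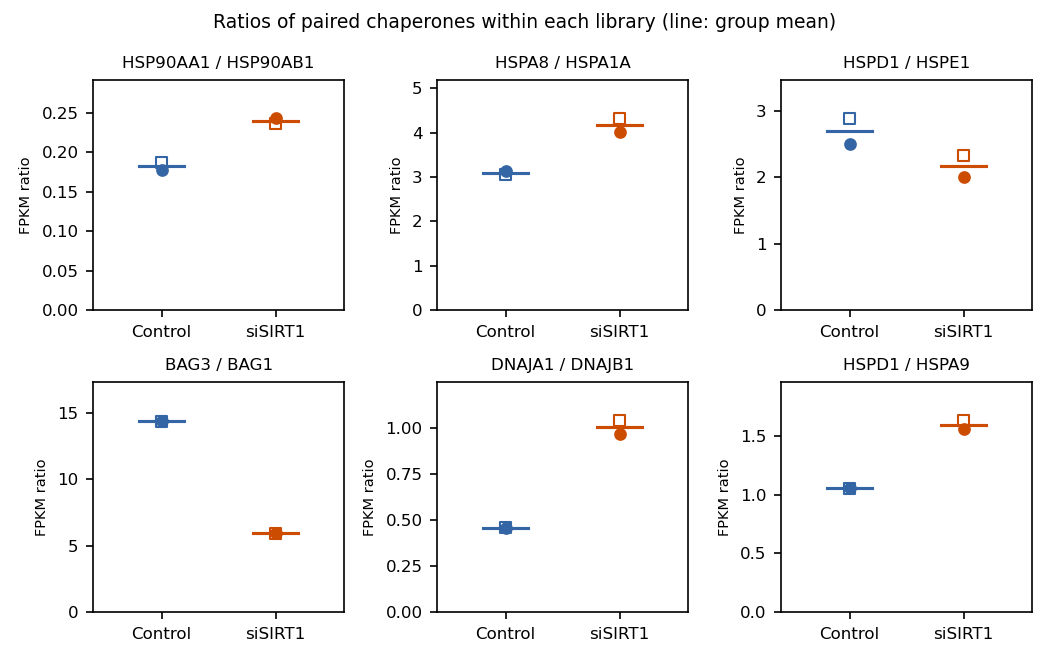
Ratio of the FPKM of partner genes within each library, with circles for replicate 1, squares for replicate 2 and a line at the group mean, on axes from 0. The ratio BAG3 over BAG1 is at 14.4 and 14.3 in Control and 5.98 and 5.94 in siSIRT1, and DNAJA1 over DNAJB1 goes from 0.460 to 0.970 and 1.04.

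The wider chaperone network was described by 73 further genes, of which 70 were in the tables and 59 were tested. Of these, 23 rose, 4 fell and 32 did not pass (45.8% passed, where 37.1% of all genes did), with a median log2 fold change of 0.15. With median-of-ratios scaling 11 rose and 4 fell (25.4%), a smaller share than the 33.4% of all genes under that scaling. Of all genes 16.6% were then higher and 16.8% lower, so the smaller share lies in the falls. Without Control 1, and also without Control 2, 11 of the 59 passed, where 22.5% and 22.1% of all genes did, a larger share than in the list. Further HSP90 co-chaperones rose in 8 of 11 genes, but in only 1 with median-of-ratios scaling. The 5 largest rises were those of DNAJC2, a ribosome-bound J-domain protein (log2 fold change 0.64, adjusted p = 0.000972, limma), DNAJC19 of the mitochondrial import motor (0.50, adjusted p = 0.00833), DNAJC9, a histone chaperone (0.50, adjusted p = 0.00171), the prefoldin subunit PFDN5, which delivers actin and tubulin to TRiC (0.44, adjusted p = 0.00243), and the mitochondrial disaggregase CLPB (0.40, adjusted p = 0.0091). The 4 that fell were DNAJB12 of the endoplasmic reticulum membrane (-0.57, adjusted p = 0.00088), the HSP70 genes HSPA1L (-0.50, adjusted p = 0.0316) and HSPA2 (-0.50, adjusted p = 0.0185), and the mitochondrial protease LONP1 (-0.20, adjusted p = 0.0427). The fall of LONP1 passed in none of the 4 fits without 1 library (limma, adjusted p from 0.0644 to 0.371) and was lost in 2 of the 9 alternative settings, over which its adjusted p ran up to 0.12. HSPA1L and HSPA2 each passed only without siSIRT1 2, with adjusted p up to 0.14 and 0.125 in the other such fits, and HSPA1L was also lost with no filter on low values (0.0889). The rises of DNAJC19 and CLPB were lost without Control 1 (0.0607) and without Control 2 (0.0758), respectively, and that of PFDN5 was 0.19 on the log2 scale once the trend with transcript length was removed.

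Of the 26 rises among the 47 chaperones, 19 passed in each of the 9 alternative settings, and 16 of those also in all 4 fits without 1 library. These 16 are HSPA8, HSPH1, HSP90AA1, AHSA1, PTGES3, CHORDC1, HSPB8, HSPB11, DNAJA1, DNAJB2, BAG1, CCT2, CCT3, TCP1, HSPD1 and HSPE1. Of the 6 falls, 3 passed in each alternative setting, namely HSPA4L, HSPA13 and BAG3. A change of more than 1.5-fold in the unscaled group means was seen in 10 genes that rose and in 2 that fell, HSPA4L and HSPA13. How many of all genes tested were as stable, or changed as much, was not counted. These counts therefore do not set the chaperones apart from other genes.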

How the data were processed

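PANC-1 RNA-seq libraries (2 Control, 2 siSIRT1) were grouped by their labels. The authors deposited FPKM values for 16878 genes in 1 table per library. The submitters' processing notes name HISAT, Bowtie2 and RSEM without roles or versions. The genome build, strand use and treatment of shared reads are not given in the sources used here. Because FPKM is relative to the total of its library, abundant genes that change can shift all others.

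The 12191 genes that averaged 1 FPKM or more were tested with limma 3.58.1 in R 4.3.3 (lmFit and eBayes, trend option on) on log2(FPKM + 1), two-sided, with Benjamini-Hochberg adjustment over all genes tested and a threshold of 0.05. The scale log2(FPKM + 1) understates the change of low genes. A fold above 1.2 with an unadjusted p under 0.001, after the study's cut-offs, was applied too. The fit was tested on simulated data in which few genes changed, with directions drawn at random. In the real data 37.1% of genes passed, most of them higher, and the simulation does not cover that case.

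The alternative settings were median-of-ratios scaling, quantile normalization, equal FPKM sums, no filter on low values, a pseudocount of 0.1, the replicate number as a block (also with median-of-ratios scaling), no mean-variance trend, and removal of the trend with transcript length (lowess span 0.3, added after the data were seen). Each library was also left out in turn. A lone library was assumed to vary like the others. The members, lists and tests were chosen with earlier results of these data known. All members are named, with values in every library for the heat shock factors, 9 preset HSP genes and the 6 largest rises and falls that passed, and of the wider list the 5 largest rises and falls.

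Depth was estimated from steps of 1 read in low FPKM values of single-exon genes. Reads per gene were estimated from it with canonical transcript lengths. The SD of the log2 difference over genes was 0.16 within Control, against 0.21 within siSIRT1. Gene positions are from GENCODE release 44 on GRCh37 and span all annotated transcripts of a gene. They were matched by gene symbol, brought up to date through the Entrez identifier. Promoter windows are from RefSeq (GRCh38.p14 table), matched by Entrez identifier.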

Additional observations from a re-analysis of the deposited data

How the results depend on the processing

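Over the 9 alternative settings the log2 fold change of SIRT1 stayed between -2.37 and -1.96. Of the 46 chaperones, 19 passed with the study's thresholds (18 higher, 1 lower), and 3 fell with no filter on low values. Over the fits without 1 library 19 to 31 passed, with 17 to 27 higher and 2 to 5 lower. In the wider list the number that passed was 15 with median-of-ratios scaling and 7 with the study's thresholds, and 11 to 27 without 1 library. Those higher numbered 11 with median-of-ratios scaling, 15 with quantile normalization, 15 with the length trend removed, 6 with the study's thresholds and 10 to 24 without 1 library, and those lower 2 with no filter, 7 with the replicate block and median-of-ratios scaling, 7 with the length trend removed, 1 with the study's thresholds and 1 to 3 without 1 library. Over all genes 2207 passed with the study's thresholds (1367 higher, 840 lower), and 2554 were lower with the replicate block and median-of-ratios scaling. Without 1 library 2691 to 4608 passed, 1721 to 2874 higher and 970 to 1734 lower. Direction turned only in genes that did not pass. With median-of-ratios scaling, alone and with the replicate block, the log2 fold changes were -0.011 in HSPA4, -0.030 in HSPA14, -0.023 in STUB1, -0.075 in DNAJA3 and -0.041 in DNAJB6. With quantile normalization they were -0.0056, -0.011, -0.011, -0.066 and -0.028 in the same order, with equal FPKM sums -0.0063 in HSPA14, -0.049 in DNAJA3 and -0.015 in DNAJB6, and with the length trend removed -0.077 in HSPA14, -0.086 in STUB1, -0.075 in HSPB1, -0.089 in DNAJA3 and -0.059 in DNAJB6. Without 1 library the ranges were -0.0088 to 0.16 in HSPA4, -0.0065 to 0.11 in HSPA14, -0.065 to 0.087 in DNAJA3, -0.00039 to 0.094 in DNAJB6, -0.25 to 0.016 in BAG4 and -0.036 to 0.020 in TRAP1. Promoters with heat shock elements numbered 21 of 42 with pairs of units. With the replicate block 35 chaperones passed, adding HSPA1A (limma, adjusted p 0.0124), CDC37 (0.0184) and HSPB1 (0.0241). Calls over all 12191 genes also grew with the block, from 4521 to 5393. Libraries of the same number deviated together with a correlation of 0.12 across genes, over only 2 pairs, so the number is not known to pair them. The cause of these shifts was not tested. With 2 libraries per group the spread is poorly known, and the 6 rises lost with median-of-ratios scaling were of 1.14-fold to 1.23-fold.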
